A study of Homo sapiens with 6 samples.

Results

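The genes described are NFE2L2 and KEAP1, which encode the transcription factor NRF2 and its inhibitor, 6 genes long known as NRF2 targets (HMOX1, NQO1, GCLC, GCLM, SRXN1 and TXNRD1), and the carbonyl reductase genes CBR1 and CBR3. They were chosen by symbol, and all 10 were found among the 30051 genes of the count table. RNA was sequenced from MDA-MB-231, an established human line of triple-negative breast cancer, after 24 h with the solvent DMSO (3 libraries, replicates 1, 2 and 3) or with 50 nM panobinostat, which inhibits histone deacetylases (3 libraries, replicates 1, 2 and 4). The groups differ in no other labelled factor, and every library is of this single cell line in serum-containing medium. The comparison asks how expression adapts to the inhibitor, and the labels describe the repeats as independent.

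NRF2 is a transcription factor that turns on genes of antioxidant and detoxifying enzymes. In unstressed cells the adaptor KEAP1 hands NRF2 to a CUL3 ubiquitin ligase and it is degraded. Oxidants and electrophiles modify KEAP1, NRF2 accumulates, pairs with a small MAF protein and binds antioxidant response elements near its target genes. CBR1 and CBR3 reduce carbonyl groups on quinones, prostaglandins and anthracycline drugs with NADPH, and their genes are neighbours on chromosome 21.

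The 10 genes did not move as a block. HMOX1, SRXN1, GCLC, TXNRD1 and CBR1 rose, CBR3, KEAP1, NQO1 and NFE2L2 fell, and GCLM was not called. The changes ran from 3.89-fold lower for CBR3 to 4.10-fold higher for HMOX1, as fitted by edgeR, whose folds differ slightly from the ratio of mean levels, with n = 3 libraries per group throughout. Thus 5 of the 10 were higher and 4 lower at an adjusted p under 0.05 (edgeR quasi-likelihood test, Benjamini-Hochberg adjustment over 13341 genes). Of all tested genes 58.9% were called, 30.2% higher and 28.6% lower, so a call by itself sets these genes little apart. The median log2 fold change was 0.15 over the 10 genes and 0.00 over all tested genes. Values of the groups did not overlap in 9 of the 10, against 69.0% of all tested genes. HMOX1, KEAP1 and CBR3 changed at least 2-fold, which 10.9% of all tested genes did upward and 4.66% downward.

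**Figure D1:**
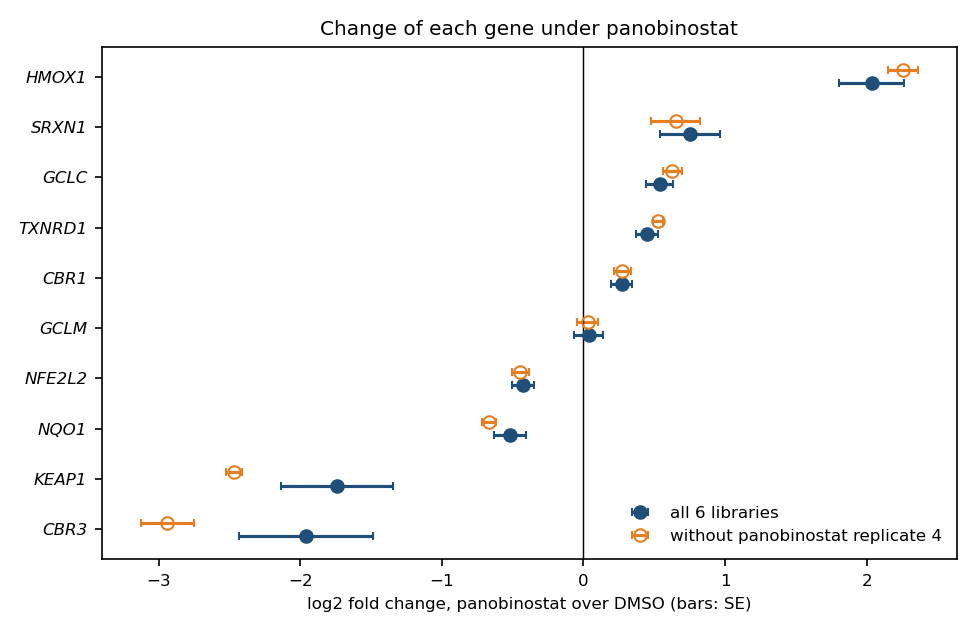
Log2 fold change of each gene, panobinostat over DMSO (x axis), with bars of 1 SE, from all 6 libraries (filled circles) and without panobinostat replicate 4 (open circles). HMOX1 lies farthest to the right at 2.04, CBR3 (−1.96) and KEAP1 (−1.74) farthest to the left, and the last pair moves further left, to −2.94 and −2.47, without that library.

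Library totals ran from 5389638 to 15106148 counts. Panobinostat replicate 4 stood apart: its log2 levels correlated across genes with those of the other panobinostat libraries at 0.972 and 0.974, and with DMSO at 0.962 to 0.964, while libraries within DMSO, and panobinostat replicates 1 and 2, correlated at 0.992 or more. The change of each of the 10 genes, and the counts and medians of the related lists, are therefore also given without it. Without it, 74.9% of the tested genes were called, 37.8% higher and 37.1% lower, and the 10 genes again split into 5 higher, 4 lower and 1 not called. At least 2-fold were then 12.7% of the tested genes upward and 8.91% downward, and again HMOX1, KEAP1 and CBR3 among the 10. Levels are given as CPM, the usual count scaled to library size, here with TMM factors. The 6 mesenchymal markers fixed for the line were all present and summed to 5370 to 5603 CPM per library. Leukocyte markers summed to at most 0.733 CPM. Of 9 luminal or epithelial markers, 5 averaged at least 1 CPM (EPCAM, CLDN4, CLDN7, GATA3 and FOXA1), while ESR1, PGR, CDH1 and CLDN3 averaged under 1 CPM. These 9 summed to 36.0 to 49.8 CPM per library. Of 6 endothelial or stromal markers, 2 averaged at least 1 CPM (PECAM1 and ACTA2), and the 6 summed to 5.50 to 9.71 CPM per library. In bulk RNA, fewer cells with a transcript and fewer transcripts per cell cannot be told apart.

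The regulators came down together but by unequal amounts. NFE2L2, the gene of NRF2 itself, stood at 89.95, 98.3 and 91.9 CPM in DMSO replicates 1, 2 and 3 and at 65.8, 73.5 and 69.3 CPM in panobinostat replicates 1, 2 and 4. The groups did not overlap, and replicate 4 was level with the other treated libraries. Its log2 fold change was −0.43 ± 0.08 (SE, edgeR adjusted p = 0.00316, and −0.45 ± 0.06 without replicate 4), a fitted fall of 1.35-fold. Mean levels were 93.4 ± 4.38 and 69.5 ± 3.85 CPM (SD). KEAP1, the adaptor that holds NRF2 down, stood at 197, 202 and 199 CPM in DMSO and at 36.6, 34.6 and 109.9 CPM in panobinostat. All treated values were lower than every DMSO value, with replicate 4 between them and the other treated libraries. The log2 fold change of KEAP1 was −1.74 ± 0.40 (edgeR adjusted p = 0.00720), a 3.34-fold fall, and −2.47 ± 0.06, or 5.53-fold, without replicate 4. The call of KEAP1 was lost with no filter on low counts (edgeR adjusted p = 0.105, the highest over its alternatives).

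The ratio of KEAP1 to NFE2L2 counts within a library is free of library scaling. It was 2.19, 2.05 and 2.17 in DMSO and 0.557, 0.471 and 1.59 in panobinostat. NFE2L2 thus had fewer counts than KEAP1 in every DMSO library and more in panobinostat replicates 1 and 2, while replicate 4 kept the DMSO order. These are counts, not levels per length or protein amounts.

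**Figure D2:**
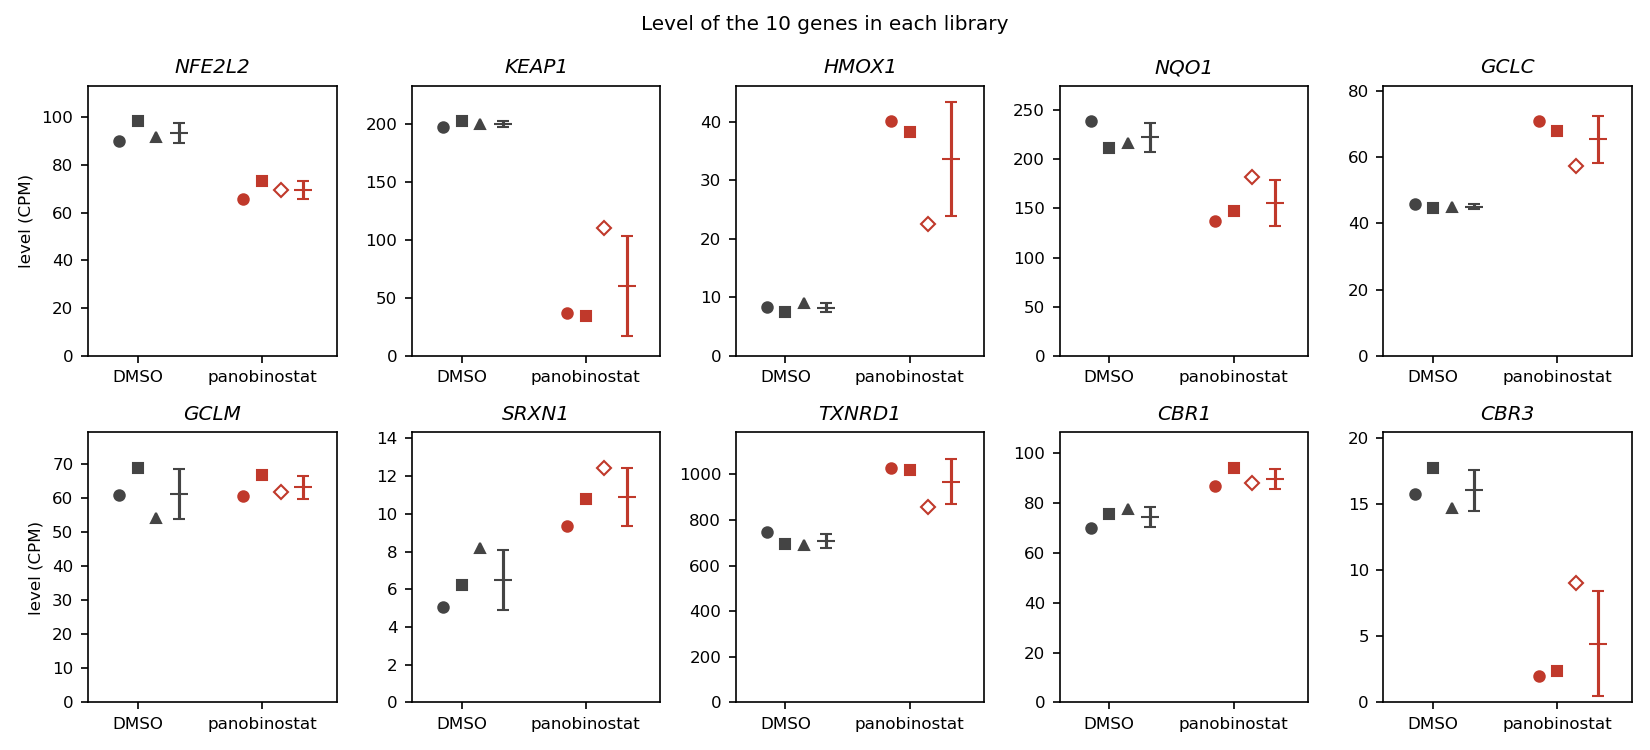
Level of each gene in CPM (y axis, from 0) in the 3 DMSO libraries (grey) and the 3 panobinostat libraries (red). Marker shape gives the replicate number (circle 1, square 2, triangle 3, diamond 4), the open diamond is panobinostat replicate 4, and dashes with bars are mean ± SD. KEAP1 and CBR3 show the widest spread among treated libraries relative to their means, with replicate 4 at 109.9 and 9.0 CPM, and GCLM overlaps between groups.

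Of the 10 genes, 8 had start regions in the RefSeq table (GRCh38.p14), each covering 250 bases before to 50 after an annotated start, 11 regions in all. HMOX1 and CBR3 had no entry. The core of the antioxidant response element, TGACNNNGC, was searched on both strands. It was found in 5 of the 11 regions, those of CBR1, GCLM, KEAP1 (its inner start) and TXNRD1 (both starts), and in 13.3% of all 35116 regions of that length. The search was made after these regions had been read, so it is a description. The matches are shown because antioxidant response elements, which hold this core, are the sequences through which NRF2 is known to act. Whether NRF2 acts through these matches was not tested. Each match is written 5′ to 3′ on the strand of the gene, with the core in capitals, and a core on the opposite strand reads as its reverse complement. None of these cores overlapped the AP-1 site TGACTCA or TGAGTCA.
CBR1, chr21:36069839-36069899, plus strand: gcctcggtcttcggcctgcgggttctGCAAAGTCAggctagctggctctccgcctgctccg
GCLM, chr1:93909446-93909474, minus strand: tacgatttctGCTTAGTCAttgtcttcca
KEAP1, inner start, chr19:10502784-10502812, minus strand: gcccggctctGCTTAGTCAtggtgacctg
KEAP1, inner start, chr19:10502807-10502835, minus strand: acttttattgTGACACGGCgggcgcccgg
TXNRD1, inner start, chr12:104286920-104286948, plus strand: gtggatttctGCTTTGTCAttctgactct
TXNRD1, outer start, chr12:104215654-104215714, plus strand: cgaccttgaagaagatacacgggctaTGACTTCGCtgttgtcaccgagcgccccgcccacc
TXNRD1, outer start, chr12:104215761-104215789, plus strand: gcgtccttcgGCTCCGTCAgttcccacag
The centres of the cores lay 4 to 155 bases before the start, farthest in CBR1. The GCLM and inner TXNRD1 windows were identical at 19 of 29 bases, and the KEAP1 window with GCTTAGTCA matched each of them at 17 of 29. Only windows holding GCTT were compared, aligned on the core, so the bases GCTT and GTCA match in all of them by construction. How many bases unrelated windows aligned this way would share was not computed. The genes that hold a core went separate ways under panobinostat: TXNRD1 and CBR1 rose, KEAP1 fell and GCLM was not called. Of the genes with a region but no core in it, GCLC and SRXN1 rose and NFE2L2 and NQO1 fell. A match describes letters in these windows and is not a measured binding site, and no match says nothing of elements farther away.

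HMOX1 encodes the inducible heme oxygenase, which breaks heme down to biliverdin, iron and carbon monoxide. It had 8.28, 7.52 and 8.97 CPM in DMSO and 40.1, 38.3 and 22.5 CPM in panobinostat. Every treated library was well above every control, replicate 4 least so. The means were 8.26 ± 0.726 and 33.6 ± 9.68 CPM. HMOX1 rose by a fitted 4.10-fold (log2 fold change 2.04 ± 0.23, edgeR adjusted p = 0.000749, and 2.26 ± 0.11 without replicate 4). NQO1, a quinone reductase widely used as a readout of NRF2, went the other way, from 239, 211 and 217 CPM to 137, 148 and 182 CPM. The groups did not overlap, and replicate 4 again lay nearest to DMSO. NQO1 fell 1.43-fold (−0.52 ± 0.11, edgeR adjusted p = 0.00553, and −0.67 ± 0.05 without replicate 4).

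GCLC and GCLM are the catalytic and modifier subunits of glutamate-cysteine ligase, the rate-limiting enzyme of glutathione synthesis. GCLC stood at 45.9, 44.5 and 44.8 CPM in DMSO and at 70.9, 68.0 and 57.3 CPM in panobinostat. It rose in all treated libraries, by 1.45-fold (0.54 ± 0.10, edgeR adjusted p = 0.00328, and 0.63 ± 0.06 without replicate 4). GCLM stood at 60.7, 68.8 and 54.1 CPM in DMSO and at 60.5, 66.7 and 61.8 CPM in panobinostat, so its groups overlapped. Its log2 fold change of 0.04 ± 0.10 was not called (edgeR adjusted p = 0.764, 0.339 to 0.988 over its alternatives, and 0.03 ± 0.07 without replicate 4), and its sign turned under 4 alternatives. The ratio of GCLC to GCLM counts was 0.755, 0.647 and 0.829 in DMSO and 1.17, 1.02 and 0.927 in panobinostat. The ratios of the groups did not overlap, and replicate 4 was the lowest of the treated libraries.

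SRXN1 encodes sulfiredoxin, which repairs over-oxidised peroxiredoxins. It had 5.07, 6.24 and 8.20 CPM in DMSO and 9.37, 10.8 and 12.4 CPM in panobinostat. The groups lay close, with the highest DMSO library just under the lowest treated library, and replicate 4 was the highest of all. The gene rose 1.69-fold (0.75 ± 0.21, edgeR adjusted p = 0.0159, and 0.65 ± 0.17 without replicate 4). It was not called once DMSO replicate 1 (edgeR adjusted p = 0.0704) or DMSO replicate 2 (0.0554) was left out. Its adjusted p over all alternatives ran from 7.80e-06 to 0.0704. TXNRD1, the cytosolic thioredoxin reductase, stood at 745, 694 and 690 CPM in DMSO and 1029, 1021 and 856 CPM in panobinostat. Its groups did not overlap, and it rose 1.37-fold (0.45 ± 0.08, edgeR adjusted p = 0.00316, and 0.53 ± 0.04 without replicate 4). The ratio of TXNRD1 to SRXN1 counts, 147, 111 and 84.1 in DMSO and 109.8, 94.4 and 68.8 in panobinostat, overlapped between the groups. Of the 4 ratios computed it was the only one to do so.

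**Figure D3:**
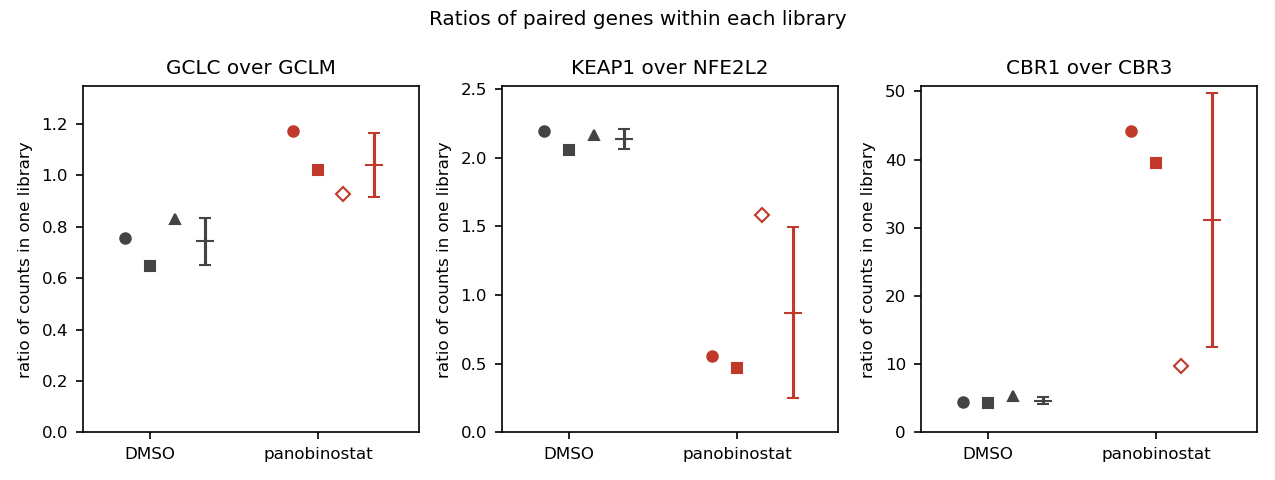
Ratio of the counts of 2 genes within each library (y axes, from 0), in DMSO (grey) and panobinostat (red), with mean ± SD as dashes and bars and markers as in the plot of levels by library. GCLC over GCLM rises from at most 0.829 to at least 0.927, KEAP1 over NFE2L2 falls from at least 2.05 to at most 1.59, and CBR1 over CBR3 rises from at most 5.29 to at least 9.80.

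The carbonyl reductase genes moved in opposite directions. CBR1, the broad-specificity enzyme, had 69.9, 75.6 and 77.8 CPM in DMSO and 86.8, 94.2 and 88.2 CPM in panobinostat. All treated values lay above all controls, and replicate 4 sat between its fellows. CBR1 rose 1.21-fold (0.27 ± 0.08, edgeR adjusted p = 0.0159, and 0.28 ± 0.06 without replicate 4). Leaving out DMSO replicate 1 (edgeR adjusted p = 0.0778), DMSO replicate 2 (0.0515) or panobinostat replicate 2 (0.0602) ended the call, as did testing all genes with no filter on low counts (0.118). Its adjusted p otherwise went down to 4.14e-07. CBR3, a close relative with weaker activity on many substrates, had 15.7, 17.7 and 14.7 CPM in DMSO but 1.97, 2.38 and 9.0 CPM in panobinostat. Replicates 1 and 2 were far below every control, and replicate 4 lay in between.

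CBR3 fell by a fitted 3.89-fold (−1.96 ± 0.47, edgeR adjusted p = 0.00887). Its means were 16.0 ± 1.55 and 4.45 ± 3.95 CPM. Without replicate 4 it fell 7.66-fold (−2.94 ± 0.19). The call was lost when no filter was set (edgeR adjusted p = 0.0524, the highest of its alternatives, the lowest being 3.26e-47). In counts, CBR3 had 186, 125 and 95 in DMSO and 30, 13 and 60 in panobinostat. CBR1 outnumbered CBR3 by 4.45, 4.26 and 5.29 to 1 in DMSO, and by 44.2, 39.5 and 9.80 to 1 in panobinostat. No stretch of 50 bases in CBR3 transcripts occurs in CBR1 transcripts (0 of 1120 windows, GENCODE release 29), so reads of that length would not be shared between the relatives.

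On GRCh38.p14, CBR1 lies at chr21:36070024-36073164 and CBR3 at chr21:36135079-36146562, both protein-coding. Of 23 RefSeq genes within 200 kb of either, 14 had a row of counts and 7 were tested. SETD4, a methyltransferase gene upstream of CBR1, was not called (−0.16 ± 0.11), nor was MORC3 at the far side (0.15 ± 0.08), although MORC3 was called higher without panobinostat replicate 4 (0.17). DOP1B, which follows CBR3, rose from 36.8 ± 3.16 to 71.6 ± 11.1 CPM (0.97 ± 0.13, edgeR adjusted p = 0.00123, and 1.10 ± 0.07 without replicate 4). The pseudogene MEMO1P1 fell (−0.82 ± 0.29, edgeR adjusted p = 0.0401), but its groups overlapped and the call was lost without DMSO replicate 1, 2 or 3 or panobinostat replicate 1 (up to 0.151, in a range of 0.000918 to 0.151). As a copy of MEMO1 its counts are uncertain. CBR3-AS1, an RNA from the strand opposite to CBR3, was low at 1.72 ± 0.156 and 1.88 ± 0.386 CPM and was not called (0.18 ± 0.26). MEMO1P1 was the only other tested gene here called lower from all 6 libraries.

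**Figure D4:**
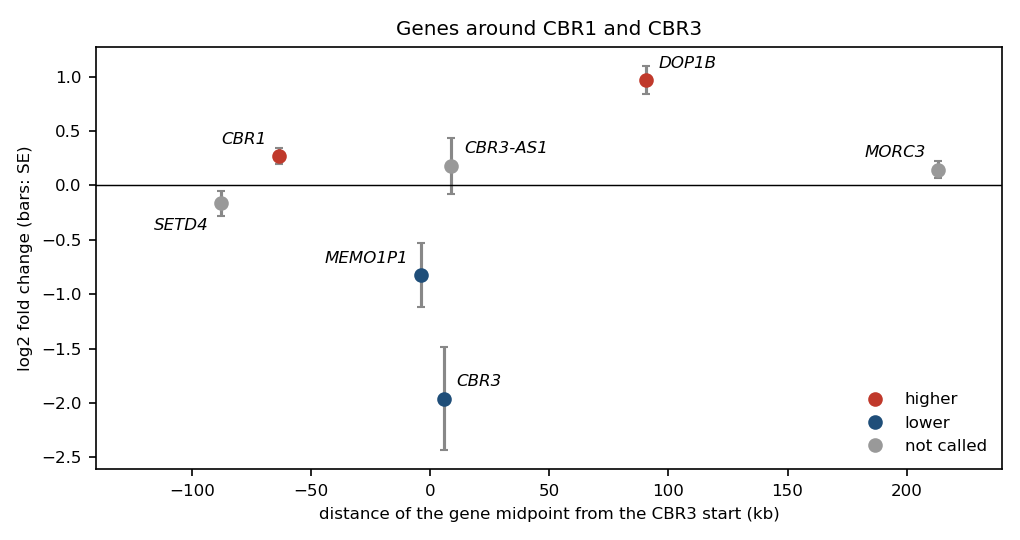
Log2 fold change with SE (y axis) of the 7 tested genes around CBR1 and CBR3 against the distance of each gene's midpoint from the CBR3 start in kb (x axis). Colours mark genes called higher, lower or not called. CBR3 at −1.96 is the lowest, with DOP1B at 0.97 on its far side and CBR1 at 0.27 on its near side.

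Levels per length rank the genes among themselves, with exon lengths from GENCODE release 29. In DMSO, CPM per kb was 106 ± 4.60 for TXNRD1, 68.2 ± 4.48 for NQO1, 53.0 ± 0.629 for KEAP1 and 30.4 ± 1.65 for CBR1. Below these came NFE2L2 (15.6 ± 0.732), CBR3 (13.7 ± 1.32), GCLM (11.3 ± 1.36), GCLC (5.21 ± 0.0799), HMOX1 (3.43 ± 0.302) and SRXN1 (2.41 ± 0.586). Between NFE2L2 and CBR3, and between CBR3 and GCLM, the library values overlapped, so their order in DMSO is not resolved. SRXN1 shares 85.0% and CBR3 42.2% of exon bases with other genes. What this did to their counts is not known, so their places in either group are uncertain. In panobinostat TXNRD1 (144 ± 14.5) and NQO1 (47.7 ± 7.23) kept the first places. HMOX1 moved up from rank 9 to rank 5 (13.98 ± 4.02), where its values overlapped those of KEAP1, NFE2L2 and GCLM, and CBR3 dropped to the last at 3.81 ± 3.38 CPM per kb, where it overlapped SRXN1 (4.03 ± 0.571) and GCLC (7.56 ± 0.827). The treated ranks of KEAP1, HMOX1 and GCLM rest on replicate 4, while CBR1, NFE2L2, GCLC and SRXN1 kept theirs without it. From replicates 1 and 2 alone, KEAP1 went from 16.1 to 9.47 CPM per kb and from rank 4 to rank 7, below NFE2L2 and GCLM. HMOX1 then took rank 4 at 16.3, and CBR3 stayed last at 1.86, below and no longer overlapping SRXN1 or GCLC.

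The position of panobinostat replicate 4 differed between genes. Its distance from the DMSO mean on the log2(CPM + 0.1) scale was set against that of the mean of replicates 1 and 2. It had covered 29.1% of that distance for CBR3, 34.6% for KEAP1, 44.6% for NQO1, 51.1% for TXNRD1, 55.6% for GCLC and 64.3% for HMOX1. For CBR1 it was 87.3%, for NFE2L2 101% and for SRXN1 147%. Among all genes at least 2-fold changed without that library, the median was 64.9% for 1699 higher genes (quartiles 56.3% and 74.4%) and 37.5% for 1189 lower genes (30.1% and 44.9%). HMOX1 and KEAP1 lay within these quartiles and CBR3 just under the lower of them.

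Other known NRF2 targets, of which 33 of 40 could be tested, were also split. Of these 11 rose (33.3%), 8 fell (24.2%) and 14 were not called, close to the shares of all genes, with a median log2 fold change of 0.05. IDH1, a cytosolic isocitrate dehydrogenase that makes NADPH (0.96 ± 0.13), rose, as did AKR1C3, an aldo-keto reductase (1.35 ± 0.22), and GSTM3, a glutathione transferase (1.31 ± 0.19). SLC7A11, the cystine importer that feeds glutathione synthesis, averaged 134 ± 0.933 CPM in DMSO and fell to 71.8 ± 23.6 CPM (−0.91 ± 0.20, edgeR adjusted p = 0.00580, and −1.23 ± 0.06 without replicate 4). MGST1, a microsomal glutathione transferase (−0.58 ± 0.14), ABCC5, an export pump (−0.44 ± 0.09), and TRIM16L (−0.39 ± 0.14) fell too. The call of TRIM16L held without panobinostat replicate 4 but was lost on leaving out any other library, and with DESeq2. AKR1C3, GSTM3 and TRIM16L have close copies, so their values are uncertain where reads could be split. Among all 13341 tested genes, 7853 were called from all 6 libraries. On leaving out any library but panobinostat replicate 4, 5765 to 6131 were, so calls became fewer over all genes. On leaving out DMSO replicate 1 or 3, or panobinostat replicate 1, 7 of the list rose. Without DMSO replicate 1 or 2, or panobinostat replicate 1 or 2, 4 fell, and without DMSO replicate 3, 5 fell. Without panobinostat replicate 4, 14 rose and 8 fell, with a median of 0.09.

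Regulators and partners of NRF2 were likewise mixed. Of the 17 that could be tested, 5 rose (29.4%, against 30.2% of all tested genes) and 7 fell (41.2%, against 28.6%). The other 5 were not called, and the median was −0.02. The relative NFE2L1 (−0.55 ± 0.11), the small MAF partner MAFG (−0.48 ± 0.09), the ligase subunit RBX1 (−0.45 ± 0.15) and the ligase exchange factor CAND1 (−0.41 ± 0.11) fell. BACH2, a repressor that competes at these elements (0.88 ± 0.27), SYVN1, a ubiquitin ligase (0.80 ± 0.13), MAFK (0.74 ± 0.11) and BTRC (0.43 ± 0.12) rose. The groups of BACH2 overlapped, with panobinostat replicate 4 (6.45 CPM) below DMSO replicate 2 (6.81 CPM). The related BACH1, at means of 107 CPM in DMSO and 119 CPM in panobinostat, was not called (0.16 ± 0.08, edgeR adjusted p = 0.0946). Without panobinostat replicate 4 it was called higher (0.23). The calls of BACH2, BTRC, RBX1 and CAND1 were each lost without at least 1 library (edgeR adjusted p up to 0.120). Without DMSO replicate 3 or panobinostat replicate 1 or 2 only 2 of this list rose, and without DMSO replicate 1, 3 rose. Without DMSO replicate 1 or 2, 4 fell, and without panobinostat replicate 4, 7 rose and 8 fell, with a median of −0.07.

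Among other carbonyl-reducing enzymes, 9 of the 24 tested rose (37.5%, against 30.2% of all tested genes) and 2 fell (8.33%, against 28.6%). The other 13 were not called, and the median was 0.24. A further 10 with a row were too low to test, and the filter keeps weakly expressed genes that the drug raises. DHRS2, a short-chain reductase, rose from 1.87 ± 0.265 to 31.5 ± 11.1 CPM (4.06 ± 0.34, edgeR adjusted p = 0.000573, and 4.32 ± 0.15 without replicate 4). HSD11B1, which makes active cortisol (2.15 ± 0.40, from 0.493 CPM), AKR1C3 and BLVRB, a biliverdin and flavin reductase (0.93 ± 0.18), rose as well. SPR, sepiapterin reductase (−0.71 ± 0.15), and DHRS4 (−0.68 ± 0.20, with near-identical copies) fell. DHRS4 lost its call without DMSO replicate 1 or 2 or panobinostat replicate 1 or 2, after which 1 of the list was lower, and without panobinostat replicate 4 the list had 12 higher and 5 lower genes and a median of 0.31.

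**Figure D5:**
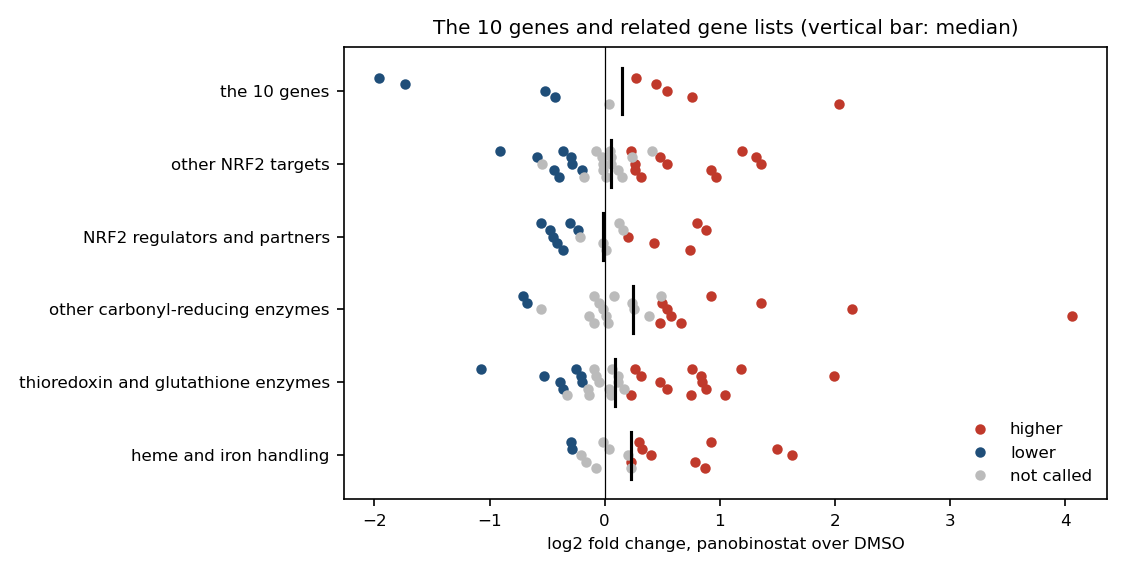
Log2 fold change of every tested gene (x axis) among the 10 genes and in 5 related lists (rows), coloured by call, with the median of each list as a vertical bar. The 10 genes spread from −1.96 to 2.04, DHRS2 lies farthest right at 4.06, and the medians run from −0.02 to 0.24. Some genes occur in several rows.

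Thioredoxin and glutathione enzymes numbered 32 tested, 3 of them among the 10 genes. The lists overlap, so their counts are not separate. TXN, PRDX1, PRDX6, GSR, GSS and CAT are also among the other NRF2 targets. AKR1B1, AKR1C3 and BLVRB are both NRF2 targets and carbonyl-reducing enzymes, and FTH1, FTL and BLVRB are both NRF2 targets and heme and iron genes. The drug raised 13 (40.6%, against 30.2% of all tested genes) and lowered 7 (21.9%, against 28.6%). Neither call was made for 12, and the median was 0.09. GLRX, a glutaredoxin (1.99 ± 0.21, from 37.5 ± 3.27 to 149 ± 43.2 CPM), GPX3, a secreted glutathione peroxidase (1.18 ± 0.15), TXNIP, which binds and inhibits thioredoxin (1.04 ± 0.13), and SOD3 (0.88 ± 0.21) rose. GPX8, a peroxidase of the endoplasmic reticulum (−1.08 ± 0.23), the mitochondrial genes TXNRD2 (−0.53 ± 0.16) and PRDX3 (−0.39 ± 0.07), and GSS, glutathione synthetase (−0.37 ± 0.08), fell. The cytosolic and mitochondrial thioredoxin reductases, TXNRD1 and TXNRD2, were thus called in opposite directions, but TXNRD2 was not called once any library but panobinostat replicate 4 was left out. GPX8 was not called with no filter. Without replicate 4 the changes were 2.20 ± 0.06 for GLRX and −1.46 ± 0.06 for GPX8. Leaving out any such library, 4 of the list fell, and without panobinostat replicate 4, 15 rose and 10 fell, with a median of 0.12.

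In heme and iron handling, the pathway of HMOX1, 18 genes were tested. Of these 9 rose (50.0%, against 30.2% of all tested genes) and 2 fell (11.1%, against 28.6%), with a median of 0.23. ALAD (1.63 ± 0.16) and ALAS1, the rate-limiting enzyme of heme synthesis (1.49 ± 0.16, from 102 ± 4.48 to 287 ± 67.5 CPM, and 1.68 ± 0.05 without replicate 4), rose, and so did the biliverdin reductases BLVRB and BLVRA (0.87 ± 0.15). TFRC, the transferrin receptor (−0.29 ± 0.07), fell. On leaving out DMSO replicate 1 or 3 or panobinostat replicate 1 or 2, 1 fell, and without panobinostat replicate 4, 11 rose and 4 fell, with a median of 0.24. For all the lists, the counts without panobinostat replicate 4 stand beside 37.8% of all tested genes higher and 37.1% lower. Counts on leaving out any other library stand beside 5765 to 6131 of all 13341 genes called in either direction, against 7853 from all 6 libraries.

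Some counts depend on overlapping annotation. Whether the counting used strand is not known here. In GENCODE release 29, 42.2% of the exon bases of CBR3 also belong to CBR3-AS1 on the opposite strand, and for NQO1 (17.7%), CBR1 (18.9%) and NFE2L2 other genes cover part. SRXN1 shares 85.0% of its exon bases with AL121758.1 on the same strand. Over the 6 libraries SRXN1 had 442 counts and AL121758.1 had 1. The level of SRXN1 is therefore uncertain. KEAP1, HMOX1, GCLM and TXNRD1 had no overlapping exon.

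Over the 6 libraries, the genes nearest to CBR3 in log2(CPM + 0.1) relative to the DMSO mean were MIR137HG, ZFX and LMNB1, at root mean square differences of 0.090, 0.106 and 0.112 among 9780 genes of at least 10 CPM. Nearest to HMOX1 were MARK4 (0.050), NEAT1 (0.053) and TUFT1 (0.058), and nearest to TXNRD1 were RAB10 (0.017), DYNLL1 (0.018) and POLR3A (0.020). In the authors' deposited table the log2 fold changes of all 10 genes had the same sign as here. The authors' deposited table gives 1.39 for HMOX1, −1.62 for KEAP1, −1.78 for CBR3, −0.45 for NQO1 and 0.02 for GCLM. The deposited sum column behind that table holds 76184320 counts, more than the 52742848 of the 6 libraries used here, so the sets of libraries may not be the same.

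The genes lie on GRCh38.p14 at chr2:177230303-177264727 (NFE2L2), chr19:10486125-10503356 (KEAP1), chr22:35381096-35394207 (HMOX1), chr16:69709401-69726560 (NQO1), chr6:53497341-53545101 (GCLC), chr1:93885199-93909430 (GCLM), chr20:646615-653200 (SRXN1) and chr12:104215779-104350307 (TXNRD1). All are protein-coding, and counts are summed over the exons of each gene.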

How the data were processed

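Raw counts per gene in 6 libraries come from a table that the authors deposited, attributed to featureCounts by its name. The submitters' processing notes name GRCh38.p14 and FastQC. For aligner, annotation and strand setting, the sources used here give nothing. That deposited table also lists log2 fold changes with SE and adjusted p-values by the authors, under a separate identifier column that equals the count rows' own in only 61 lines, so genes were matched by identifier.

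Counts were tested with edgeR 4.0.16 in R 4.3.3 (quasi-likelihood, robust, TMM, filterByExpr, treatment only). The filter kept 13341 genes and left out 16710. Calls are at a Benjamini-Hochberg adjusted p under 0.05. The SE is the log2 fold change divided by the root of F. An exact test of 3 against 3 libraries cannot go below a p of 0.1, so none was used. Alternatives were other scalings, no filter, DESeq2 1.42.0, limma 3.58.1 (voom, with and without library weights), each library left out, and the replicate number as a block. On counts simulated for this comparison over 13341 genes, 199 of 200 genes changed 2-fold were called, with 9 false calls. The simulation gave every gene the same small spread between libraries, changed only these 200 genes and held no library apart. Its rates therefore check the code and do not carry over to the real libraries.

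The members and lists were chosen with earlier results of these data known. Named list genes are the up to 4 called members per direction with the largest change and at least 1 CPM. BACH1 and the genes shared between lists are named in addition. Some genes that this rule names are not reported here. Chosen after seeing the data were the motif search, the 4 ratios of counts, the measure of where panobinostat replicate 4 lay, the checks of overlapping exons and 50-base windows, and the 0.1 CPM pseudocount. The left-out-library fits first had the low-count filter redone. Holding the genes tested at the 13341 was decided after both outputs had been seen, so that 1 choice changes at a time, and both are given.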

Additional observations from a re-analysis of the deposited data

How the results depend on the processing

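With 3 libraries per group and 1 treated library apart, small changes are at the edge of detection. The 4 members called lower were called lower under 13 of the 14 alternatives, and with no filter only 2 were, NFE2L2 and NQO1 (the cause was not tested). The 5 called higher stayed at 3 to 5 over the left-out libraries. Calls over all 13341 tested genes numbered 7853 from all 6 libraries and 9994 without panobinostat replicate 4. They numbered 5765 to 6131 on leaving out any other library, so list counts there stand beside fewer calls over all genes. GCLM was never called and turned to −0.017 with no filter and −0.020 with the replicate block, and ran from −0.040 to 0.13 over the left-out libraries. CBR3-AS1 ran from −0.011 to 0.29. Replicate numbers 1 and 2 occur in both groups, and deviations of same-numbered libraries correlated at 0.051 and 0.0081. The treated deviations are from a mean that includes replicate 4, which stood apart, so these values cannot decide whether the numbers pair libraries. Under the replicate block the members counted 5 higher and 4 lower, and SETD4 was called lower (−0.27) and MORC3 higher (0.15). In that fit DMSO replicate 3 and panobinostat replicate 4 have no same-numbered partner, so the treatment change comes from replicates 1 and 2 alone. It is no check independent of leaving out panobinostat replicate 4.

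Over the left-out libraries, other NRF2 targets had 7 to 14 higher and 4 to 8 lower, regulators and partners 2 to 7 higher and 4 to 8 lower, other carbonyl-reducing enzymes 1 to 5 lower, thioredoxin and glutathione enzymes 4 to 10 lower, and heme and iron handling 1 to 4 lower. With library quality weights, carbonyl-reducing enzymes lower numbered 5, and under the block also 5. Heme and iron genes lower numbered 1 with library size only, 1 with DESeq2 and 5 with the replicate block. Causes were not tested. When the low-count filter was redone after leaving out a library, an alternative added after the data were seen, 0 of the 10 members had another call than with the tested genes held. Members higher again numbered 3 to 5 and members lower 4, and without panobinostat replicate 4 10250 of 13746 genes were called, against 9994 of 13341.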
